A study of Drosophila melanogaster with 40 samples.

Results

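Binding of the repressor Capicua (Cic) was examined at wntD, sna and zfh1, genes of the ventral, mesodermal side of the Drosophila embryo. The members were taken by gene symbol: each gene was annotated by the authors to 1 peak, so 3 peaks of the final list are described, which holds 100 others. Cic carried super-folder GFP and was pulled down from early nuclear cycle 14 embryos with a GFP antibody (chromatin immunoprecipitation followed by sequencing, ChIP-seq). Wild type embryos had the genotype (+/+); (CicsfGFP/+). Embryos of the genotype (UAS-OptoSOS/gal4);(CicsfGFP/gal4), with the maternal driver MTD gal4, were kept in the dark or given 1, 5 or 30 min of blue light. OptoSOS is a light-gated activator of Ras, and so of the kinase ERK. Embryos with a constitutively active Torso receptor were (TorD4021/+);(cicsfGFP/+), and untagged OreR embryos (+/+) were the negative control. In every tagged genotype the label shows the tagged allele on 1 of the homologues. Fixation took 15 min in all groups. Each condition had 3 ChIP libraries, or 2 for 1 min of light, which the authors had combined into 1 signal matrix per condition. The spread between replicates is therefore unknown, and every interval below covers counting error only. Whole embryos were used, so less Cic per nucleus and fewer nuclei with Cic cannot be told apart.

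Cic is an HMG-box protein that holds genes silent until ERK signalling relieves the repression, as Torso does at the poles of the embryo. Along the dorsoventral axis the NF-kB factor Dorsal switches on the ventral genes, among them the mesoderm regulators twi and sna. The gene sna encodes a zinc-finger repressor that keeps neuroectoderm genes off in the mesoderm. The gene zfh1 encodes a zinc-finger homeodomain protein of mesodermal derivatives and is the fly member of the ZEB family. The gene wntD encodes a secreted Wnt protein that feeds back on Dorsal and restrains its entry into nuclei.

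The wntD peak was the strongest of the set and the only one in a promoter. It spans chromosome 3R, 13293257 to 13293787 (dm6), with its near edge 59 bp upstream of the annotated start of wntD (FBgn0038134). Its deposited fold enrichment over untagged embryos was 22.1, which ranked 5 in the final list, between pnt peak 1 with 24.3 and Rpn12R peak 1 with 21.7. The -log10 q value of the call was 209.6. The gene lies to the left, from 13292052 to 13293198 on the minus strand, and CG8773 lies 1196 bp to the right of the summit. Where a gene has more than 1 peak, the number runs from the highest score down.

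The zfh1 peak, which the authors class as distal intergenic, lies in a gene-free stretch of chromosome 3R, from 30762244 to 30762658, 3268 bp upstream of the gene (FBgn0004606). Its fold enrichment was 9.66 and its -log10 q was 92.3. The same fold enrichment belonged to the peak of ths, and InR peak 1 followed with 9.07. No other annotated gene lies within 10000 bp of its summit. The nearest on the far side, lncRNA:CR43238, ends 15276 bp away.

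The sna peak, also called distal intergenic by the authors, covers chromosome 2L from 15479845 to 15480261, 1585 bp upstream of sna (FBgn0003448). It was in the middle of the list, with a fold enrichment of 7.19, rank 52 and a -log10 q of 47.99. ND-20L with 7.23 and CG3168 with 7.10 stood next to it. On its other side Tim17b2 lies 4717 bp from the summit.

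The complete set of MACS2 calls held 1 further call beside sna and 1 beside wntD, both left out of the final list, and none within 10000 bp of the zfh1 summit. The call at sna covers the gene's start site (15478225 to 15478405, summit 53 bp upstream), with a fold enrichment of 3.20 and a -log10 q of 6.10. The call beside wntD lies 744 bp beyond the main summit (13294201 to 13294351), with 3.08 and 4.04. Its summit is 1098 bp upstream of the wntD start, and CG8773, whose span begins at 13294748, is the nearer gene. Both calls are far weaker than the peaks they accompany.

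**Figure D1:**
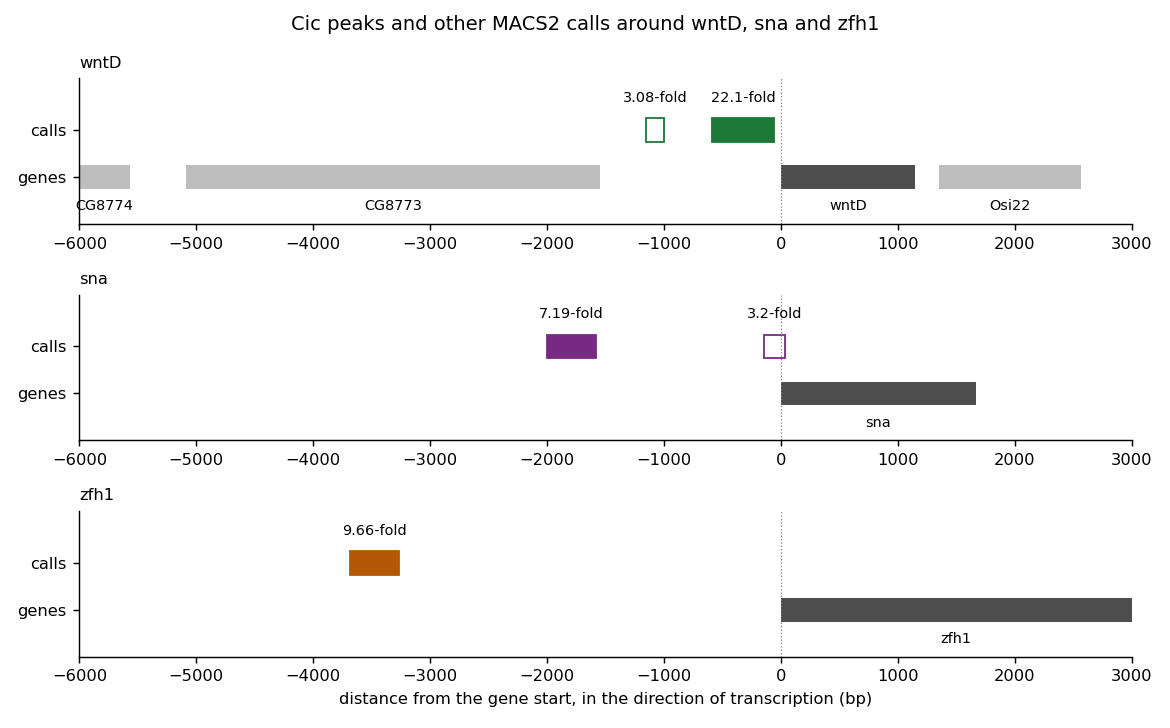
Position of MACS2 calls (upper bars) and annotated genes (lower bars) along the distance from each gene's start in bp, in the direction of transcription. Filled bars are peaks of the final list and open bars are calls left out of it, each with its deposited fold enrichment. All 3 peaks lie upstream of their gene, at 59 bp for wntD, 1585 bp for sna and 3268 bp for zfh1.

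The untagged libraries differed among the loci. The untagged level that MACS2 used at the summit was 9 reads at wntD, 13 at sna and 15 at zfh1, where the genome-wide level was 6.90. These are 1.30, 1.88 and 2.17 times the genome-wide level, against a median of 1.24 over all peaks. Without tagged Cic the level was thus above that of the typical peak at zfh1 and sna, and near it at wntD.

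Signal was deposited as z-scores against noise peaks in windows of 10 bp, over 2000 bp around each peak. The level of a peak is its mean within 250 bp of the window centre. For ratios the z-scores were turned back into coverage over noise, which is the mean read coverage divided by the mean coverage of the noise peaks. A difference is called beyond counting error where the 95% exact interval of the ratio excludes 1.

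In wild type embryos the wntD peak was tall and narrow, the sna peak low and broad, and the zfh1 peak between them. The mean z-score was 20.8 at wntD, 14.8 at zfh1 and 12.97 at sna, which ranked 5, 17 and 26 in the final list. The highest point reached 51.5 at wntD, 33.5 at zfh1 and 21.2 at sna. Midway up to that height the sna peak measured 320 bp, exceeded by 9 peaks, while wntD measured 160 bp and zfh1 210 bp against a median of 200 bp. Under active Torso the sna peak was 450 bp wide and after 5 min of light 420 bp, each exceeded by 3 peaks.

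**Figure D2:**
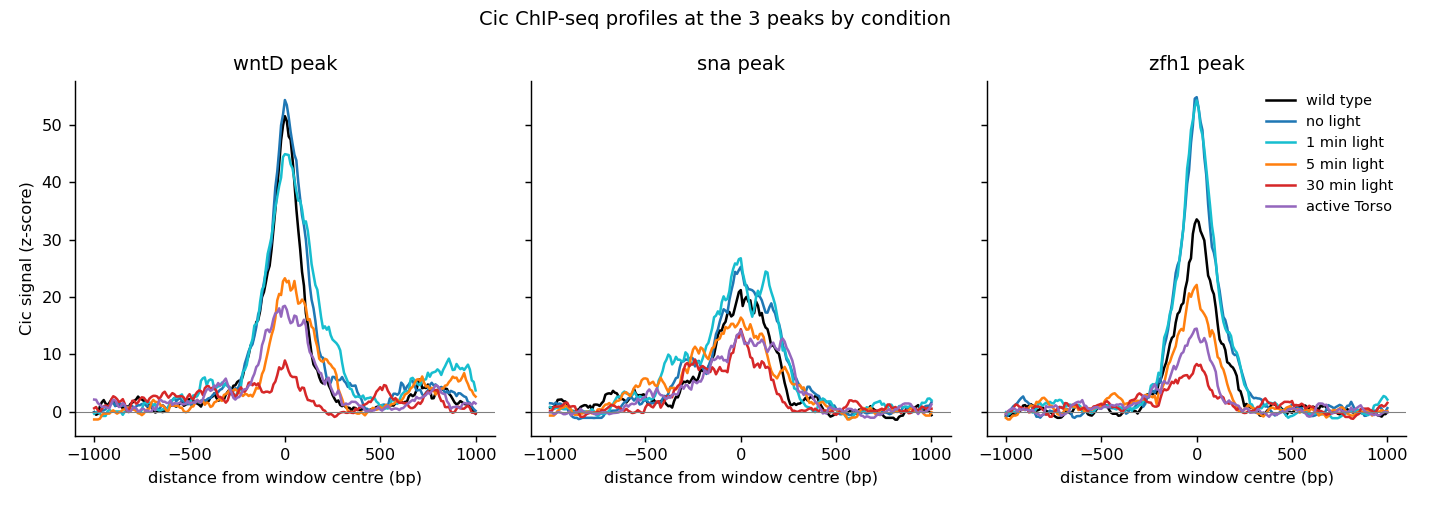
Cic signal (z-score, 10 bp steps) against the distance from the window centre in bp, for the 3 peaks in 6 conditions, 1 line per condition. The zfh1 maximum is 54.8 in no light, where wild type has 33.5, and the sna peak is broader than the others in every condition.

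At wntD the mean z-score in wild type was 20.8, against 24.3 in dark OptoSOS embryos and 24.8 after 1 min of light, then 12.2 after 5 min and 3.81 after 30 min. With active Torso it was 10.7. Coverage over noise ran from 23.5 after 1 min (95% counting interval 21.4 to 25.8) to 4.05 after 30 min (3.29 to 4.95). At each peak the conditions were sorted by this value itself, so their order was not set beforehand. Each step down the order at wntD was beyond counting error, except that 5 min of light (10.2, 8.99 to 11.4) and active Torso (9.04, 7.99 to 10.2) overlapped.

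At zfh1 the z-score was 14.8 in wild type, 23 in no light, 23.6 after 1 min, 9.68 after 5 min, 3.71 after 30 min and 6.56 with active Torso. Coverage over noise ran from 22.4 (20.3 to 24.6) after 1 min to 3.97 (3.22 to 4.86) after 30 min. All 5 steps between neighbours in the order sorted by this value were beyond counting error. At this peak active Torso and 5 min of light were apart, at 5.93 (5.09 to 6.88) and 8.29 (7.25 to 9.46).

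At sna the z-score was 12.97 in wild type, 16.1 in no light, 17.6 after 1 min, 11.6 after 5 min, 7.73 after 30 min and 10.3 with active Torso. Coverage over noise spanned a smaller range, from 16.9 (15.2 to 18.9) after 1 min to 7.19 (6.17 to 8.36) after 30 min. Wild type (10.3), 5 min of light (9.76), active Torso (8.71) and 30 min of light followed each other without a step beyond counting error between neighbours. Across this run the conditions did differ. The intervals of wild type (9.10 to 11.6) and 30 min did not overlap, and 30 min was 1.36-fold below 5 min (1.11 to 1.65). The sna peak ranked 26 in wild type and 2 after 30 min, while wntD ranked 5 and 14 and zfh1 17 and 16.

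**Figure D3:**
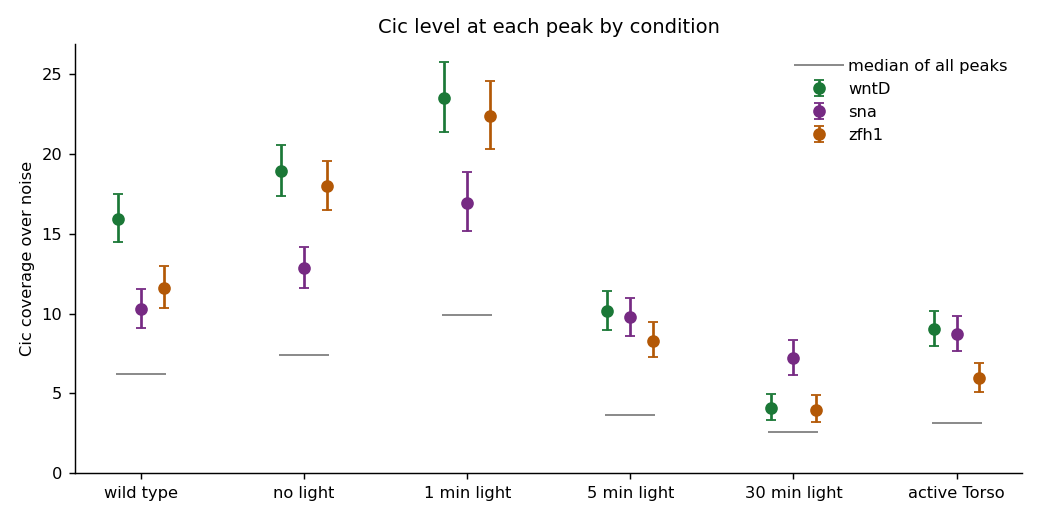
Cic coverage over noise (read coverage within 250 bp divided by that of noise peaks) in each condition. Points are the 3 peaks with 95% Poisson counting intervals and grey bars the median of all final peaks. After 30 min the sna point (7.19) lies above those of wntD (4.05) and zfh1 (3.97).

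Dark OptoSOS embryos were compared with wild type to see the line without its stimulus. All 3 peaks were higher beyond counting error in the dark OptoSOS embryos, as were 46.6% of all peaks. The zfh1 peak differed most, at 1.548 times the wild type coverage over noise (1.35 to 1.79), the 6th highest ratio of the list. The ratios of wntD, 1.19 (1.05 to 1.35), and sna, 1.25 (1.07 to 1.46), lay near the median of 1.19. The zfh1 ratio exceeded that of wntD by 1.30 times (1.08 to 1.58) and that of sna by 1.24 times (1.003 to 1.54). With a window of 100 bp the wntD and sna ratios, 1.14 and 1.19, were no longer beyond counting error.

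No loss of Cic was seen at these genes after 1 min of light. The ratio to no light in coverage over noise was 1.24 at wntD (1.10 to 1.41), 1.32 at sna (1.14 to 1.53) and 1.24 at zfh1 (1.09 to 1.41). All 3 were called higher, as were 63.1% of all peaks, and the median ratio was 1.26. The ratios divide by the noise coverage, which was 2.83 reads after 1 min and 4.33 in no light. Error in these noise levels is not in the intervals. The z-scores of wntD, sna and zfh1 differed by 0.53, 1.502 and 0.54. By the height of the profile none of the 3 was beyond counting error, and the wntD ratio was then 1.02 (0.797 to 1.29).

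After 5 min of light all 3 peaks were lower than in no light beyond counting error, as were 93.2% of all peaks. The zfh1 peak was 2.17-fold lower (1.85 to 2.55) and the wntD peak 1.86-fold lower (1.61 to 2.16), on either side of the median of 2.02-fold. The sna peak was 1.32-fold lower (1.12 to 1.546), with only 9 other peaks at a higher ratio. Against 1 min of light the same order held, with 2.70-fold at zfh1, 2.31-fold at wntD and 1.73-fold at sna, where 96.1% of all peaks were lower. These comparisons share the 5 min matrix.

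Between 5 and 30 min the wntD peak lost much of what it still had. From 5 to 30 min it came down 2.51-fold further (1.98 to 3.19), the 11th lowest ratio of the list. The zfh1 peak was 2.09-fold lower (1.63 to 2.68) and sna 1.36-fold (1.11 to 1.65), with a median of 1.47-fold over all peaks. All 3 were called lower, against 51.5% of all peaks. Among the 26 peaks at least as strong as sna in no light, the median was 1.93-fold. From the highest ratio wntD took place 19 there, zfh1 place 16 and sna place 4. The rank of wntD over all peaks thus does not set it apart from peaks of like strength. By the height of the profile the sna step was 1.07-fold (0.704 to 1.65) and not beyond counting error. 

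By the mean within 250 bp, a larger part of the loss at these genes than at the median peak came after 5 min. Only at wntD and sna was the share reached at 5 min below the lower quartile. Of the whole fall in z-score from no light to 30 min, 59.2% had been reached at 5 min at wntD, 53.1% at sna and 69.1% at zfh1. The median over the 98 peaks lower at 30 min was 78.8% (quartiles 68% and 88.7%), and 16, 11 and 28 of those peaks had a share no larger than wntD, sna and zfh1. The zfh1 share thus lay within the quartiles. By the height of the profile sna went from 25.3 in no light to 16.4 after 5 min and 14.4 after 30 min. A smaller part of its fall then came after 5 min, so the low share at sna depends on the measure. The height at wntD went from 54.3 to 23.3 and 8.95, and at zfh1 from 54.8 to 22.1 and 8.34. By this measure wntD and zfh1 thus ran close to each other. No shares by height are given for the other peaks. No interval was computed for the shares, which use the same 3 matrices at every peak.

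Over the full 30 min the sna peak lost less than the wntD and zfh1 peaks. Coverage over noise was 4.67-fold lower than in no light at wntD (3.75 to 5.84) and 4.53-fold lower at zfh1 (3.63 to 5.69), with a median of 3.11-fold. At sna it was 1.79-fold lower (1.48 to 2.15). All 3 were called lower, as were 95.1% of all peaks. With the outer flanks (250 bp at each end of the window) subtracted the loss was 8.24-fold at wntD, 5.95-fold at zfh1 and 2.01-fold at sna. At wntD these flanks take in part of the weaker call beside the peak. Their mean z-score there was 1.98 in no light and 1.32 after 30 min, against medians of 0.635 and 0.378 over all peaks. The wntD value is therefore not a loss over plain background. Left at 30 min, without the flanks subtracted, were 55.9% of the no light coverage over noise at sna, 21.4% at wntD and 22.1% at zfh1.

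Over all peaks the share left at sna ranked 15 from the highest. The sna peak was also set beside peaks at least as strong, a set bounded by its own level. In no light 26 peaks had a z-score at or above that of sna, and their median loss at 30 min was 4.91-fold. The sna peak, by construction the weakest of the 26 in no light, kept the highest share of them. Every peak that kept a larger share lay below this bound, so the place in the set does not single sna out. Among 26 peaks it also stayed in first place with windows of 100 or 500 bp, with the maximum, after alignment by shape and with the flanks subtracted. In the same set wntD took place 12 and zfh1 place 11. The untagged level was 1.88 times the genome-wide level at sna and 2.17 times at zfh1, both above the median of 1.24 over all peaks. Its part in the signal left at 30 min was not tested.

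**Figure D4:**
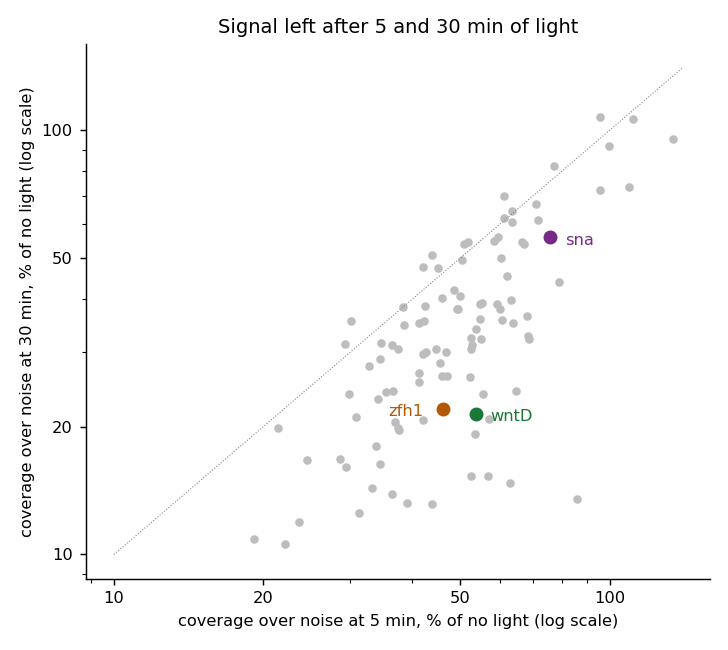
Coverage over noise left after 5 min (x axis) and 30 min (y axis) of light as a percentage of no light, both on log scales, 1 point per peak with the members coloured. The dotted line marks equal values. The sna point lies at 76% and 55.9%, and wntD and zfh1 lie at 53.7% and 46.1% on the x axis and close together at 21.4% and 22.1% on the y axis.

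Constant Torso signalling was compared with wild type embryos. The zfh1 peak was 1.96-fold lower (1.62 to 2.36) and the wntD peak 1.76-fold lower (1.51 to 2.06), both beyond counting error, as were 87.4% of all peaks. The sna peak had 1.18-fold lower coverage over noise (0.993 to 1.404) and was not called. Only 9 other peaks had a higher ratio than sna, and the median was 2.20-fold lower. In a window of 100 bp the sna peak was lower beyond counting error, by 1.43-fold (1.13 to 1.84), so the call at sna depends on the width taken.

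Split into an inner part (100 bp on each side) and an outer part (110 to 300 bp on each side), a division made after the profiles were seen, the sna peak with active Torso was lower only inside. Its outer part was at 1.10 times the wild type level (0.875 to 1.39). The wntD peak was likewise 2.08-fold lower inside (1.71 to 2.54) and 1.24-fold lower outside (0.964 to 1.58). At zfh1 both parts were lower, by 2.01-fold and 1.72-fold. Over all peaks the medians were 2.47-fold inside and 1.69-fold outside, so a larger fold at the centre was the general pattern. Background was not subtracted in either part and weighs more where the signal is lower, which makes the outer folds smaller. The split therefore cannot show whether bound Cic fell by a different share inside and outside. With the profiles aligned by shape the inner part of sna was 1.38-fold lower (1.08 to 1.76) and its outer part at 1.05 times the wild type level (0.837 to 1.33).

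Light and active Torso were set side by side. After 5 min of light zfh1 had 1.399 times the coverage over noise of active Torso (1.14 to 1.71), whereas wntD had 1.12 times (0.946 to 1.34) and sna 1.12 times (0.940 to 1.34). Thus 1 of the 3 was called higher and none lower, against 29.1% and 3.88% of all peaks. After 30 min wntD was 2.23-fold lower than with active Torso (1.76 to 2.84) and zfh1 1.49-fold lower (1.16 to 1.94). The sna peak was 1.21-fold lower (0.993 to 1.47), at 1.08 times the active Torso level by the height of the profile (0.693 to 1.64), and was not called by either, so 2 of 3 were lower, where 36.9% of all peaks were. With a window of 500 bp the calls of sna and zfh1 changed places, at 1.24-fold (1.05 to 1.47) and 1.23-fold (0.995 to 1.53). These comparisons cross genotypes, and the effect of light cannot be told apart from that of the line.

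The differences between members were taken from the ratio of their ratios, with exact conditional intervals on reads. At 5 min against no light sna retained 1.42 times as much as wntD (1.14 to 1.76) and 1.65 times as much as zfh1 (1.31 to 2.07). At 30 min the factors were 2.61 (1.96 to 3.50) and 2.54 (1.90 to 3.41). With active Torso against wild type they were 1.49 (1.18 to 1.89) and 1.65 (1.28 to 2.14). Hence sna differed from both others beyond counting error in these 3 comparisons, among 27 such ratios computed without adjustment. The ratio of wntD to zfh1 was 1.16 at 5 min (0.935 to 1.45), 0.970 at 30 min (0.706 to 1.33) and 1.11 with active Torso (0.867 to 1.42), and none of these intervals excludes 1.

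**Figure D5:**
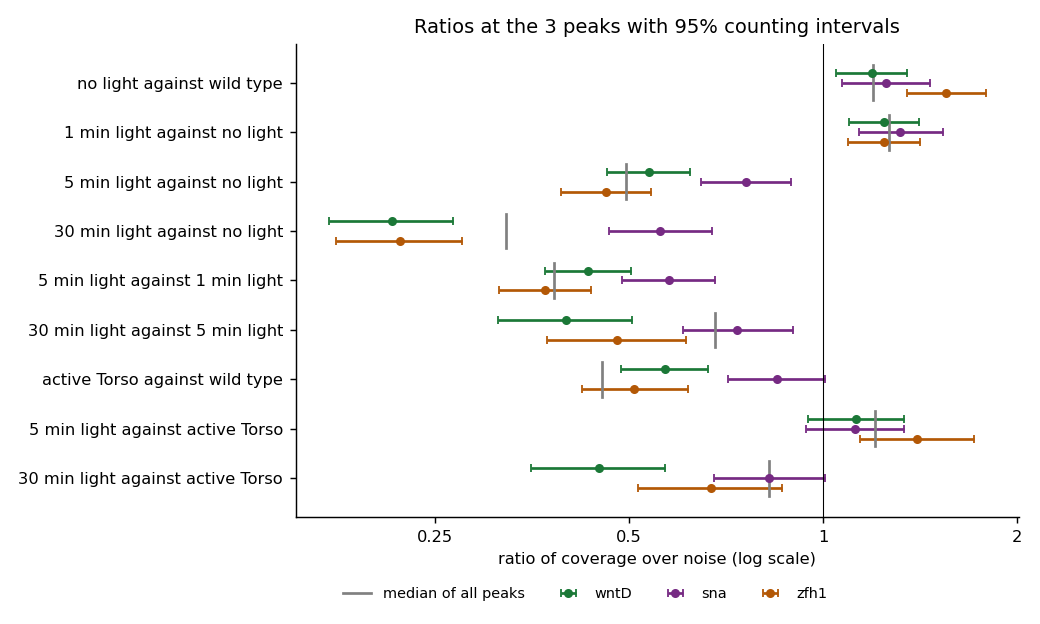
Ratios of coverage over noise for 9 comparisons (log scale), with 95% exact conditional counting intervals, for wntD, sna and zfh1. Grey bars are the median of all final peaks, and the black line marks no difference. The sna ratio at 30 min against no light (0.559) lies to the right of the median (0.322), and those of wntD (0.214) and zfh1 (0.221) to its left.

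The weak second call beside wntD lies in the flank of its window. Within 100 bp of the place of that call the mean z-score was 3.65 in wild type, 4.18 in no light, 5.99 after 1 min, 4.37 after 5 min, 2.19 after 30 min and 2.91 with active Torso. On the mirrored side of the window it was 1.10, 0.988, 0.656, 0.670, 2.00 and 0.625. The signal there was thus above the other flank in every condition but 30 min, where they were about level. After 5 min it was close to its no light value while the main peak had gone from 24.3 to 12.2. The highest point of that flank lay at 710 bp in wild type, 670 bp in no light, 860 bp after 1 min, 940 bp after 5 min and 520 bp after 30 min. Each matrix is centred on its own highest point, so a fixed offset need not be the same place in each condition. These values therefore do not follow 1 site. No interval was computed for this flank, which was chosen after the profile was seen.

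Profile shapes were compared with wild type at the shift that gave the best match. The zfh1 profile had a Pearson correlation over the central 1000 bp of 0.993 in no light, 0.995 after 1 min, 0.980 after 5 min and 0.926 after 30 min. That of wntD was 0.989 in no light and 0.775 after 30 min, and that of sna 0.972 and 0.893. Without a shift the values were 0.885 for zfh1 and 0.750 for wntD after 30 min, and 0.861 for sna. Widths midway up the peak ran from 130 to 290 bp at wntD, 220 to 450 bp at sna and 180 to 220 bp at zfh1 over the 6 conditions. The best match lay within 60 bp of the deposited centre at all 3 peaks. Each value describes 1 pair of profiles whose neighbouring windows share reads.

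Peaks that moved most like each member were found from the log2 coverage over noise relative to wild type in the other 5 conditions. Nearest to wntD were pnt peak 3 (Euclidean distance 0.20), CG6163 (0.34) and brk (0.48), where the median distance to other peaks was 1.16. Nearest to zfh1 were sty (0.28), Lrt (0.45) and fend peak 2 (0.50), with a median of 1.17. Nearest to sna were prd peak 2 (0.32), CG12986 (0.38) and shn (0.47), with a median of 1.69. The distance between wntD and zfh1 was 0.72, and sna lay 1.68 from wntD and 1.39 from zfh1. These distances compare ratios and not levels. The z-score of sty was 3.01 in wild type and 0.10 after 30 min, and that of pnt peak 3 was 4.92 and 0.26. After 30 min zfh1 was at 3.71 and wntD at 3.81.

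Genes of the ventral programme and related pathways were looked up in the final list. Of 18 ventral and mesoderm genes on the list, sna, zfh1 and wntD alone were annotated to a final peak. The mesoderm regulator twi, the FGF receptor gene htl and its adaptor gene stumps, and the mesoderm factors Mef2 and tin had none. None of 13 genes of the Toll and Dorsal pathway had a peak, among them Tl, dl and cact. Of 11 Wnt pathway genes wntD was the sole one, and of 6 genes of the Snail family and the zinc-finger homeodomain group sna and zfh1 were, without esg, wor, scrt and zfh2. Over all protein-coding genes 0.609% were annotated to a peak, so the absence of a peak is not read as a result about these genes. The members were chosen with these peaks known, so their own presence is not evidence for the lists.

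Of 10 mesectoderm and neuroectoderm genes ind, brk and ths had a peak, and all 3 were lower after 5 and 30 min of light and with active Torso, as were 93.2%, 95.1% and 87.4% of all peaks in the same comparisons. The homeobox gene ind of the neuroectoderm had z-scores of 8.90 in wild type, 14.96 in no light, 4.08 after 5 min and 1.45 after 30 min. The peak of ths, an FGF ligand gene whose receptor acts in the mesoderm, went from 19.2 in no light to 5.59 after 5 min and 4.20 after 30 min. At brk, a repressor gene of the BMP pathway, the values were 7.22, 2.61 and 0.829. The median loss of the 3 peaks at 5 min was 2.91-fold, against 1.86-fold for the 3 ventral peaks, and at 30 min 3.80-fold against 4.53-fold. With 3 peaks in each group these medians are a description.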

How the data were processed

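Processed files of 40 libraries (20 ChIP) were used. The submitters' processing notes name Trim Galore, BWA 0.7.17-r1188, SAMtools, MACS2, ChIPseeker and the build dm6. Per the file headers, MACS 2.1.2 called peaks on pooled wild type against pooled untagged libraries (6994179 and 5712080 tags, tag size 74 bp, extension 145 bp, q 0.01, 468 calls). The authors deposited for each call a fold enrichment ratio, a pileup signal and -log10 q values, and for the final list also a score and the distance to the nearest start site. How the 103 final peaks were picked from these calls is not stated in the sources. Matrices of z-scores, 201 windows by 103 peaks with replicates combined, were deposited as z-score values relative to noise peaks, per the contents sheet.

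Matrix columns carry no names and were taken in the order of the peak list. All 5 pairs of peaks within 1500 bp shared identical stretches in that order and none in reverse, except that 4 of 5 did after 30 min of light and with active Torso. Z-scores lay on whole steps, read as bases per window with the lowest value as no coverage. Noise coverage was then 2.83 to 4.33 reads. Each matrix has its windows centred on its own highest point. Read equivalents are read bases divided by the tag size, and gave 94.9 to 565 per member and condition. Intervals are exact conditional (binomial) or Poisson, computed with scipy 1.17.1 in Python 3.11.15. The binomial intervals were tested on simulated independent Poisson counts. Windows that share reads, centring on the highest point, error in the noise level and pooled replicates were not simulated. The untagged level is the pileup plus 1 over the fold enrichment, minus 1. Gene neighbours come from the RefSeq table of the same assembly, and all 55 listed genes matched it. Named genes are the members, their neighbours by fold enrichment, the 3 peaks closest to each in pattern and listed genes with a peak; listed genes without a peak, genes next to the members and other calls beside them are named as description. Members and lists were chosen with earlier results of these data known. Depth of single libraries is unknown, and input libraries were not used here. Motif counts were planned and not made, since no sequence was used here.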

Additional observations from a re-analysis of the deposited data

Results flagged for a closer look

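Signal above the untagged embryos also appeared in calls outside the final list. The call 744 bp from the wntD summit had a fold enrichment of 3.08, and the call over the start site of sna had 3.20. The matrices hold no window at the sna start site, so its response to light was not measured here.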

How the results depend on the processing

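No paired analysis was possible because replicates were combined in 1 matrix per condition, which also leaves no replicate to omit. For 27 values (3 peaks in 9 comparisons) 6 alternatives were run. The direction turned for 1 of them, sna at 30 min against active Torso, which was at 1.08 times with the maximum and called in neither case. Alignment by shape changed no call. With windows of 100 bp, wntD and sna in no light against wild type were 1.14 and 1.19 times and wntD at 1 min against no light 1.12 times, all no longer beyond counting error, while sna with active Torso came to 0.698 of wild type and was called. With 500 bp, sna at 30 min against active Torso was called at 0.806, and zfh1 was not at 0.815. With the maximum, calls were lost for wntD (1.08) and sna (1.21) in no light against wild type, for wntD (1.02), sna (1.29) and zfh1 (1.21) at 1 min against no light, for sna at 30 min against 5 min (0.937) and for zfh1 at 30 min against active Torso (0.646). A maximum rests on fewer reads than a mean. With the outer flanks subtracted, ratios left the counting interval at wntD for 5 min (0.455) and 30 min (0.121) against no light, 30 min against 5 min (0.267) and 30 min against active Torso (0.291), and at zfh1 for 30 min against no light (0.168). The 30 min loss was then 8.24-fold at wntD and 5.95-fold at zfh1. At wntD the outer flanks take in part of the weaker call beside the peak. The cause of these changes was not tested. Gene bodies within 10000 bp gave 7 listed genes with a peak in place of 6, and the nearest gene of all MACS2 calls gave 10. With 99% intervals the 10 counts of called peaks used in the text stayed within 1.5 times. Of those not used, peaks higher at 30 min than with active Torso went from 8 to 3, and peaks lower in no light than in wild type from 3 to 1.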
